A study of Mus musculus with 186 samples.

Results

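The constructs described here are 12 versions of the mouse Pwp2 promoter in which sequence motifs of the transcription factors GABPA, SP1, NRF1 or MYC (mouse genes Gabpa, Sp1, Nrf1 and Myc) had been mutated. They were chosen by name, as the rows of the Pwp2 mutant library named for a mutated GABPA, SP1, NRF1 or MYC motif or for all of these factors together, and they make up 12 of the 34 constructs of that library and 12 of the 572 construct rows in the library tables of the series. Of the 12 constructs, 8 carry a mutation in 1 motif (GABPA_1, GABPA_2, SP1_1, SP1_2, NRF1_1, NRF1_2, NRF1_3 and MYC, numbered along the promoter), 3 carry mutations in all motifs of GABPA, SP1 or NRF1, and 1 is named for mutation of all transcription factor (TF) motifs. The unmutated promoter in the same pool, called the WT construct, is the reference. The constructs were cloned with short barcodes. The pool was inserted by recombinase-mediated cassette exchange at a single site of the beta-globin locus of mouse embryonic stem (ES) cells. Activity is the RNA reads of a barcode over its reads in genomic DNA, plus a pseudocount of 0.05, averaged on the log2 scale over the barcodes of a construct.

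The pool was measured in 2 ES cell lines grown in serum and LIF with no treatment. The wild-type line, genotype Wild Type, was the TC-1 line with the exchange site. The TKO line was made from it by CRISPR-Cas9 deletion of Dnmt1, Dnmt3a and Dnmt3b, the DNA methyltransferases. Each line gave 3 replicates of RNA and DNA. In the wild-type line the pool was mixed with cells that carried another promoter library, and in the TKO line with DNA of that library before insertion. The labels do not say that replicates were separate insertions, so the spread between them may be technical.

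Pwp2 encodes a component of the machinery that processes ribosomal RNA, and its promoter is a CpG island, the CG-rich promoter type of genes used by most cells. GABPA is an ETS family activator that binds the sequence CCGGAAGT and forms close to it. SP1 binds GC boxes such as GGGCGG. NRF1 binds a palindrome built of TGCGC and its reverse complement, and is blocked by methylation of its CpGs, and MYC binds the E-box CACGTG as a dimer. The comparison asked which of these motifs the promoter needed for its activity, whether several motifs of a factor counted for more than each alone, and whether the answer depended on DNA methyltransferases.

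The sequences below show the unmutated motifs, since the results turn on where they lie and where they overlap. Each was read from the mm9 genome on the minus strand of chromosome 10, and is printed 5′ to 3′ along the promoter, with the positions given in the construct's name in capitals. The Pwp2 insert covers chr10:77647729-77648156, 428 bp of a 457-bp construct. Positions were placed by taking position 15 as the first base of the insert, an offset of 14. With this offset the number of CpGs lost from the deposited CpG count could be accounted for at 7 of 7 numbered motifs, as it could with an offset of 13, so that the placement holds to about 1 base. The replacement letters were not used here.

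GABPA_1, positions 153 to 161, chr10:77648010-77648018: tctcagctagTTCACCGCTacgcagcgcc

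NRF1_1, positions 167 to 177, chr10:77647994-77648004: cgctacgcaGCGCCTGCGTAgaggcaggg

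SP1_1, positions 216 to 225, chr10:77647946-77647955: gagggagggaCGGGCGGGGCttcccaggac

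SP1_2, positions 248 to 257, chr10:77647914-77647923: tagggttgcgGCTCCGCCCCggaagtgcgc

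GABPA_2, positions 255 to 264, chr10:77647907-77647916: gcggctccgcCCCGGAAGTGcgcgttttaa

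NRF1_2, positions 275 to 284, chr10:77647887-77647896: cgcgttttaaGCGCCGGAGAttgtttgtat

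MYC, positions 322 to 327, chr10:77647844-77647849: tacggtacccCACGTGtggttccagg

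NRF1_3, positions 370 to 379, chr10:77647792-77647801: gcggcgggccGGGCAGGGGCaacgggaggg

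The annotated start of Pwp2 (GENCODE M1, chromosome 10, base 77647894) falls at construct position 277. GABPA_1, NRF1_1, SP1_1, SP1_2 and GABPA_2 lie upstream of it, with their first bases at -124, -110, -61, -29 and -22 from it. NRF1_2 spans the start, MYC lies in the 5′ UTR of exon 1 and NRF1_3 in intron 1. The MYC construct carries no position in its name, and the site printed for it is the single CACGTG of the insert, which is where an E-box mutation would have to lie but was not read from a file.

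The motifs differ in how closely they match the letters the factors are known for. On either strand of the insert, CCGGAAGT occurs inside GABPA_2 and once more at positions 296 to 303, where no motif mutant changed it, and it does not occur in GABPA_1. GGGCGG occurs inside SP1_1 and, on the other strand, inside SP1_2. TGCGC occurs in none of the 3 NRF1 motifs but at positions 263 to 267, where it shares its first bases with GABPA_2. These letters are common to different degrees: of 32544 distinct RefSeq promoter sequences of 300 bases (GRCm38.p6), 3.92% held CCGGAAGT on either strand, 35.9% GGGCGG, 30.5% TGCGC and 7.17% CACGTG. A match of letters describes the sequence and says nothing of binding. SP1_2 and GABPA_2 share positions 255 to 257. The CCGGAAGT inside GABPA_2 starts at position 256, so that the SP1_2 positions also hold its first bases.

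Depth was low for this pool and set how firmly single constructs could be read. Each replicate held between 356 and 1107 barcodes over the 34 constructs, of which 121 to 348 belonged to the 12 motif mutants. The WT construct had 60, 35 and 40 barcodes in wild-type replicates 1 to 3 and 23, 16 and 19 in TKO replicates 1 to 3. GABPA_1 rested on 4, 1 and 2 barcodes in wild-type and 1, 1 and 2 in TKO replicates. NRF1_1 rested on 7, 2 and 3 and on 5, 5 and 5. SP1_2 had 12, 4 and 7 and 3, 4 and 5, and the construct with both GABPA motifs mutated had 9, 3 and 4 and 6, 4 and 5.

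The WT construct had log2 activities of 1.26, 1.80 and 1.60 in the wild-type replicates and of -0.01, 1.17 and 1.04 in the TKO replicates. TKO replicate 1 therefore stood about 1 log2 unit below the other TKO replicates in the reference itself, and every value relative to the WT construct in that replicate was raised by as much. The lowest activity the assay can give is the log2 of the pseudocount, -4.32, which lay 5.88 below the WT construct on average in wild-type cells and 5.05 below it in TKO cells. Drops close to these sizes are limited by that floor.

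In wild-type cells, 10 of the 12 mutants were lower than the WT construct by limma at an adjusted p under 0.05, against 29 of all 33 constructs tested in the library, or 87.9%. The median change of the 12 mutants was -1.26 on the log2 scale, and that of all 33 was -3.61, most of the others being mutants of CpGs outside these motifs. The number of mutants that fell is thus close to the background of the library, and the sizes, not the count, separate them. The mutants formed 3 levels of mean log2 activity. GABPA_1, SP1_1, the NRF1 mutants and MYC lay between 0.08 and 1.59, GABPA_2, all GABPA and SP1_2 between -2.39 and -2.05, and all SP1 and all TF motifs at -3.85 each. Within each level, neighbours in the order overlapped between replicates, but between the levels they did not. The WT construct, at 1.56, did not overlap SP1_1, the next below it.

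GABPA_2 and GABPA_1 gave different results although both are named for GABPA. GABPA_2 had log2 activities of -1.70, -2.32 and -2.36 in wild-type cells. All 3 lay far below the WT construct, at 7.79% of its activity. The log2 change was -3.68 ± 0.63 (SD, n = 3), with an adjusted p of 4.54e-16 by limma.

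GABPA_1 had 1.23, 2.47 and 1.07. These values overlapped those of the WT construct, at a log2 change of 0.03 ± 0.61 (SD, n = 3) with an adjusted p of 0.924 by limma, and the 95% interval of the change ran from -0.64 to 0.71. With at least 3 barcodes required in 2 replicates this construct drops out. In TKO cells it had 1.96, 1.16 and -1.07, which spread above and below the WT construct with a change of -0.05 ± 2.04 (SD, n = 3; adjusted p = 0.927 by limma).

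The construct with both GABPA motifs mutated had -2.17, -1.87 and -2.12. That is 8.19% of the WT construct, a log2 change of -3.61 ± 0.15 (SD, n = 3; adjusted p = 9.89e-16 by limma), and its values overlapped those of GABPA_2 alone. In TKO cells GABPA_2 had -3.82, -3.74 and -3.54 and was again below the WT construct in 3 of 3 replicates, by -4.43 ± 0.56 (SD, n = 3), with an adjusted p of 1.77e-11 by limma. The construct with both motifs mutated had -2.45, -2.39 and -2.28 there, a change of -3.11 ± 0.59 (SD, n = 3; adjusted p = 2.73e-07 by limma). It was thus higher than GABPA_2 alone in every TKO replicate, by 1.33 ± 0.06 (SD, n = 3), while the difference was 0.07 ± 0.49 in wild-type cells. In the TKO replicates it rested on 6, 4 and 5 barcodes and GABPA_2 on 11, 6 and 8. The SD is between replicates, not between barcodes. Over the 6 replicates the construct with both motifs mutated exceeded GABPA_2 by 0.70 ± 0.75 (SD), in 5 of 6, with an exact sign-flip permutation p of 0.125. Permuting the cell-line labels gave an exact p of 0.1 for the difference between the lines, the smallest that 3 against 3 allows.

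The 2 SP1 motifs separated in the same way. SP1_2 had log2 activities of -1.99, -3.10 and -2.08 in wild-type cells, or 6.48% of the WT construct. The log2 change was -3.95 ± 0.86 (SD, n = 3; adjusted p = 2.32e-17 by limma). SP1_1 had 1.09, 0.69 and 1.13. All 3 lay below the WT construct of their replicate, but the change of -0.59 ± 0.48 (SD, n = 3) did not pass the test (adjusted p = 0.0954 by limma), and its 95% interval ran from -1.26 to 0.09.

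The construct with both SP1 motifs mutated had -3.68, -3.95 and -3.92, and fell to 2.36% of the WT construct, a log2 change of -5.41 ± 0.41 (SD, n = 3; adjusted p = 1.03e-23 by limma). It stood 0.47 above the floor on average. It lay below SP1_2 in 6 of 6 replicates of both lines, by -0.96 ± 0.65 (SD), with an exact sign-flip permutation p of 0.03125, the smallest that 6 replicates allow, and 0.0625 after adjustment over the 8 differences of this kind.

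In TKO cells SP1_2 had -3.58, -3.77 and -3.67. These values rested on 3, 4 and 5 barcodes and lay 0.55 to 0.74 above the floor, which limits how far they can spread. The change of -4.41 ± 0.73 (SD, n = 3) passed the test (adjusted p = 1.98e-11 by limma). SP1_1 had 0.94, -0.29 and 1.91, which spread around the WT construct with a change of 0.12 ± 1.37 (SD, n = 3; adjusted p = 0.872 by limma). The construct with both SP1 motifs mutated had -4.22, -4.07 and -4.11, all within 0.25 of the floor, a change of -4.87 ± 0.57 (SD, n = 3; adjusted p = 1.29e-12 by limma).

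In TKO cells, 5 of the 12 mutants were lower than the WT construct by limma, against 20 of all 32 constructs tested, or 62.5%, and 1 was higher, against 3.12%. Calls in either direction made up 65.6% of all constructs. The 5 were GABPA_2, all GABPA, SP1_2, all SP1 and all TF motifs, and the mutant that was higher was NRF1_1, described below. Without TKO replicate 1, in which the WT construct was low, 8 were lower and 1 higher, the additional 3 being all NRF1, MYC and GABPA_1, the last on 1 and 2 barcodes.

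For GABPA and SP1, the difference between the motifs of a factor was seen in every replicate. GABPA_1 exceeded GABPA_2 in 6 of 6 replicates, by 4.05 ± 1.30 log2 units (SD), a 16.6-fold difference. With at least 3 barcodes in both constructs, only 1 replicate was left for this pair, at 2.92. SP1_1 exceeded SP1_2 in 6 of 6 replicates by 3.94 ± 0.95, a 15.4-fold difference. Each had an exact sign-flip permutation p of 0.03125 and an adjusted p of 0.0625. With 8 differences tested and 4 of them at the smallest p possible, no adjusted p here could pass 0.05. The sign-flip tests count the 6 replicates as independent. Taken as 3 pairs of same-numbered replicates, they allow no exact p below 0.25. In TKO cells GABPA_2 stood 0.50 to 0.78 and SP1_2 0.55 to 0.74 above the floor, so that their drops there, and with them both differences, are limited by it.

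The NRF1 mutants changed activity far less. In wild-type cells NRF1_1 had log2 activities of -0.40, 1.06 and 1.39. NRF1_2 had 1.07, 0.05 and 0.59, and NRF1_3 had 0.13, 0.83 and 0.71. Each lay below the WT construct in 3 of 3 replicates, at 54.5%, 50.4% and 50.0% of it. The changes were -0.87 ± 0.73, -0.99 ± 0.78 and -1.0 ± 0.12 (SD, n = 3), with adjusted p of 0.0140, 0.00606 and 0.00569 by limma. Each of these 3 calls was lost when 1 wild-type replicate was left out: NRF1_1 without replicate 1 (adjusted p = 0.283), NRF1_2 without replicate 2 or 3 (0.0754 and 0.0680) and NRF1_3 without replicate 3 (0.0501), by limma. The change itself was then -0.48 for NRF1_1, -0.61 and -0.97 for NRF1_2 and -1.05 for NRF1_3, so that those of NRF1_2 and NRF1_3 without replicate 3 were about as large as before.

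The construct with all 3 NRF1 motifs mutated had 0.07, -0.14 and 0.30 in wild-type cells and fell to 35.9% of the WT construct, a change of -1.48 ± 0.40 (SD, n = 3; adjusted p = 6.49e-05 by limma). It lay below NRF1_3, the lowest single mutant over both lines, in 6 of 6 replicates, by -0.67 ± 0.56 (SD), with an exact sign-flip permutation p of 0.03125 and an adjusted p of 0.0625. The order of the 3 single mutants did not pass a test over both lines. NRF1_1 exceeded NRF1_2 by 0.60 ± 1.10 and NRF1_3 by 0.81 ± 0.88, and NRF1_2 exceeded NRF1_3 by 0.21 ± 0.64 (SD over 6 replicates), with adjusted exact permutation p of 0.286, 0.15 and 0.344. In TKO cells alone NRF1_1 was above NRF1_2 by 1.09 ± 0.64 and above NRF1_3 by 1.5 ± 0.37, in 3 of 3 replicates each, against 0.11 ± 1.37 and 0.13 ± 0.61 in wild-type cells (SD, n = 3).

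In TKO cells none of the single NRF1 mutants was lower by the test. NRF1_1 had log2 activities of 1.76, 2.76 and 1.47 and was above the WT construct in 3 of 3 replicates, at 240% of it. The change of 1.26 ± 0.73 (SD, n = 3) had an adjusted p of 0.0291 by limma, which became 0.211 without TKO replicate 2 and 0.0992 with replicates weighted by barcodes. NRF1_2 changed by 0.18 ± 1.04 and NRF1_3 by -0.23 ± 0.64, with adjusted p of 0.814 and 0.754 by limma. The construct with all 3 motifs mutated had -0.06, -0.80 and -0.22 and lay below the WT construct in 3 of 3 replicates. Its change of -1.09 ± 0.97 (SD, n = 3) had an adjusted p of 0.0613 by limma. It became 0.0453 in an unpaired fit with no replicate block and 0.0302 with at least 3 barcodes, and without TKO replicate 1 it was -1.61, with an adjusted p of 3.40e-05.

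The MYC mutant had 0.83, 0.05 and 0.65 in wild-type cells. It lay below the WT construct in 3 of 3 replicates, at 48.3% of it, with a change of -1.05 ± 0.66 (SD, n = 3; adjusted p = 0.00388 by limma). In TKO cells it had 0.49, -0.08 and 0.42, a change of -0.46 ± 0.89 (SD, n = 3; adjusted p = 0.498 by limma). Without TKO replicate 1 the change was -0.93 and the adjusted p 0.00901.

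The construct named for all TF motifs had log2 activities of -3.90, -3.64 and -4.01 in wild-type cells. These values lay within 0.68 of the floor and overlapped those of the construct with both SP1 motifs mutated. In TKO cells it was at -4.32, the floor, in all 3 replicates, over 20, 18 and 24 barcodes. The changes were -5.41 ± 0.23 in wild-type and -5.05 ± 0.65 in TKO cells (SD, n = 3; adjusted p = 1.03e-23 and 5.92e-13 by limma). The TKO change therefore shows how far the WT construct stood above the floor. In wild-type cells this mutant stood 0.47 above the floor on average, and its change is limited by the floor. This construct had lost 9 of the 39 CpGs of the WT construct. The constructs with all motifs of GABPA, SP1 and NRF1 mutated lost 2, 4 and 4, or 9 in all when the CpG that SP1_2 and GABPA_2 share is counted once, and the MYC mutant lost 1. The CpG count thus matches a construct in which the MYC motif was not mutated, but the sequence of the construct was not used here.

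The number of CpGs removed did not order the drops. GABPA_2, which lost 1 CpG, fell by 3.68 on the log2 scale in wild-type cells. GABPA_1 also lost 1 CpG and did not pass the test. SP1_1, SP1_2, NRF1_1 and NRF1_2 lost 2 each and ranged from -3.95 to -0.59, and NRF1_3, which lost none, changed by -1.0. The 12 mutants kept 30 to 39 CpGs and observed over expected CpG ratios of 0.870 to 1.00.

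Additivity was tested by setting the log2 change of the construct with all motifs of a factor mutated against the sum of the changes of its single mutants in the same replicate. A difference of 0 means that the fractions of activity left by each mutation multiply. None of the 4 differences passed the test over 6 replicates. For GABPA the difference was 0.04 ± 0.65 in wild-type cells and 1.38 ± 1.98 in TKO cells (SD, n = 3 each), positive in 3 of 6 replicates, with an exact sign-flip permutation p of 0.344 and an adjusted p of 0.458. In wild-type cells the expected change was -3.65 and the measured one -3.61. The TKO differences were -0.60, 1.36 and 3.37. In TKO replicate 3, which gave the last, GABPA_1 had 2 barcodes and the sum lay below the floor. Without that replicate the mean difference over both lines was 0.18, against 0.71 over all 6 replicates.

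For SP1 the construct with both motifs mutated lay below the sum in 4 of 6 replicates. The difference was -0.87 ± 0.99 in wild-type cells, where the sum was -4.54 and the measured change -5.41, and -0.58 ± 1.51 in TKO cells (SD, n = 3 each). The exact sign-flip permutation p was 0.188 and the adjusted p 0.375. In TKO cells the construct with both motifs mutated lay within 0.25 of the floor, so that the difference there is limited by it. The sum lay below the floor in 1 of 6 replicates. With the sum limited to the floor, the difference over 6 replicates was -0.88 (exact sign-flip permutation p = 0.125).

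For NRF1 the cell lines went opposite ways. In wild-type cells the differences were 1.80, 1.53 and 0.83, so that the construct with all 3 motifs mutated kept more activity than the sum of -2.86 would leave. In TKO cells they were -3.60, -3.09 and -0.20, where the sum of the single changes was positive, at 1.21, and the measured change was -1.09. Over the 6 replicates the mean difference was -0.46 ± 2.35 (SD), with an exact sign-flip permutation p of 0.656. The sum holds the WT construct of the replicate for each single mutant. A low WT construct, as in TKO replicate 1, thus raises the sum more than the measured change and lowers the difference. The WT construct was not low in TKO replicate 2, which gave -3.09. Without TKO replicate 1 the mean difference over both lines was 0.17 ± 1.98, and without TKO replicate 2 it was 0.07 ± 2.19 (SD, n = 5 each). Each of these means holds 3 positive wild-type and 2 negative TKO values. Why the lines differed was not tested.

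For all TF motifs the sum of the 8 single changes was -12.1 in wild-type cells, which the assay cannot register. SP1_2 and GABPA_2 share positions 255 to 257, so that their changes, both in this sum, may count the same bases more than once. What this adds to the difference was not tested. The sum lay below the floor in 5 of 6 replicates, and the difference of 4.82 ± 4.54 (SD over 6 replicates; exact sign-flip permutation p = 0.0625, adjusted p = 0.25) measures the floor as much as the promoter. With the sum limited to the floor of each replicate the difference was -0.42, and without MYC in the sum it was 4.07.

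Between the cell lines, 1 of the 12 mutants differed in its activity relative to the WT construct, and it was the only 1 called among the 32 constructs tested, or 3.12%. NRF1_1 was higher in TKO than in wild-type cells by 2.14 ± 0.61 on the log2 scale (SE, n = 3 in each line; adjusted p = 0.0201 by limma). Like those of NRF1_3, which was not called, the relative values of NRF1_1 did not overlap between the lines. They were -1.66, -0.74 and -0.22 in wild-type and 1.77, 1.59 and 0.43 in TKO cells. Relative to the median construct of each replicate, which lowers every TKO minus wild-type difference by 0.62, the difference was 1.52 with an adjusted p of 0.372, with no reference construct it was 1.32 with an adjusted p of 0.327, and weighted by barcodes the adjusted p was 0.101. The call was also lost without wild-type replicate 1 or 2 (adjusted p = 0.390 and 0.0893) and without TKO replicate 1 or 2 (0.158 and 0.131), by limma, while the difference stayed between 1.75 and 2.20 in these 4 fits and was 2.41 when weighted by barcodes. With the replicate number as a block it was 2.14 ± 0.49 (SE; adjusted p = 0.01 by limma).

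The other 11 mutants did not pass this test. Their differences ran from -0.75 for GABPA_2 to 1.16 for NRF1_2, with the same SE of 0.61, and their 95% intervals reached from -1.96 to 2.37, so that changes of this size could have been missed. The shared SE does not reflect the few barcodes of GABPA_1. Weighted by barcodes its SE was 1.40, so that larger changes could have been missed there. In log2 activity with no reference construct, GABPA_2 was the only construct called. Its values of -1.70, -2.32 and -2.36 in wild-type and -3.82, -3.74 and -3.54 in TKO cells did not overlap, and the difference was -1.58 (adjusted p = 0.0190 by limma). This was not particular to GABPA_2. Log2 activities did not overlap either for all GABPA, SP1_2, all SP1, all TF motifs and the WT construct, or for NRF1_1, which was higher in TKO cells. SP1_2 differed by -1.28 (adjusted p = 0.141 by limma). The WT construct itself was lower in TKO cells by 0.82 in mean log2 activity. Relative to the median construct, GABPA_2 differed by -1.37, with an adjusted p of 0.0566.

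A separately built library of the same promoter, with 1 10-bp window after another replaced by CpG-free sequence, measured the same positions in wild-type cells, with 1634 to 3158 barcodes a replicate over 45 constructs. Its WT construct lay 3.97 to 4.32 above the floor. Of the 13 windows that overlap a motif, 8 were lower than its WT construct by limma and none was higher, against 16 of all 44 constructs tested lower, or 36.4%, and 4 higher, or 9.09%. The median log2 change was -0.54 over these 13 windows and 0.05 over the other 29.

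The window of positions 255 to 264, which are exactly those of GABPA_2, changed by -2.89, -2.91 and -2.62 over 52 to 108 barcodes, a mean of -2.81 ± 0.16 (SD, n = 3; adjusted p = 2.84e-13 by limma) or 14.3% of the WT construct. The window of positions 245 to 254, which covers 7 of the 10 positions of SP1_2, changed by -0.44, -0.02 and 0.44. The mean was -0.0073 ± 0.44 (SD, n = 3; adjusted p = 0.989 by limma), with 2 of 3 replicates below the WT construct. This window also holds most bases of the GGGCGG of SP1_2, at positions 251 to 256. The other 3 positions of SP1_2 belong to the window that matches GABPA_2. The SP1_2 mutant lost 2 CpGs, of which, at the offset used, only 1 lies wholly inside its positions, and the second joins its last base to the next base of CCGGAAGT. Whether the drop of the SP1_2 mutant rests on its SP1 or on its GABPA letters cannot be told apart from that construct.

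At SP1_1, the window over 9 of its 10 positions fell by 0.55 ± 0.15 (SD, n = 3; adjusted p = 0.0134 by limma), close to the -0.59 of the motif mutant, which had not passed its test. The next window, of positions 225 to 234, holds 1 base of SP1_1 and fell by 0.54 ± 0.31 (SD, n = 3; adjusted p = 0.0184 by limma). Both calls were lost without window replicate 1 or 2. At GABPA_1, the windows of positions 145 to 154 and 155 to 164 changed by 0.38 ± 0.50 and -0.29 ± 0.40 (SD, n = 3), and neither passed the test. The second CCGGAAGT, at positions 296 to 303, lies inside the window of positions 295 to 304, which changed by 0.15 ± 0.42 (SD, n = 3; adjusted p = 0.511 by limma). The same letters thus went with a drop to 14.3% at 1 place of the promoter and no detected change at the other.

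At NRF1_1, the windows of positions 165 to 174 and 175 to 184 changed by -0.41 ± 0.20 and -0.28 ± 0.25 (SD, n = 3), with adjusted p of 0.0509 and 0.166 by limma. At NRF1_2, the window with the same positions fell by 0.77 ± 0.10 (SD, n = 3; adjusted p = 0.000573 by limma), which was lost without window replicate 2. At NRF1_3, the windows of positions 365 to 374 and 375 to 384 fell by 1.22 ± 0.03 and 0.49 ± 0.52 (SD, n = 3; adjusted p = 1.30e-06 and 0.0351 by limma), the latter lost without window replicate 1 or 2. At the E-box, the windows of positions 315 to 324 and 325 to 334, with 3 bases of it each, fell by 1.62 ± 0.29 and 0.82 ± 0.29 (SD, n = 3; adjusted p = 2.25e-08 and 0.000474 by limma), against -1.05 for the MYC mutant. The second of these was lost without window replicate 1 or 2.

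The construct named for all TF motifs was measured in this library too. It had log2 activities of -4.02, -4.09 and -4.02 over 43, 26 and 21 barcodes, and changed by -3.90 ± 0.20 (SD, n = 3; adjusted p = 3.35e-16 by limma), to 6.68% of the WT construct, against 2.35% in the motif library. In both libraries it lay close to the floor, and the WT construct stood nearer to the floor in the window library.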

How the data were processed

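Barcode RNA and DNA reads of the motif and window libraries of Pwp2 were used as activities that the authors deposited, each a ratio of RNA to DNA reads of a barcode plus a pseudocount of 0.05, averaged as a geometric mean over barcodes. Per the study's methods, RNA and DNA libraries were brought to an equal number of reads, only barcodes with more than 20 DNA reads entered, and barcodes were linked to promoters by string distance. Bowtie and mm9 are named in the submitters' processing notes. The deposited tables also give the G+C content in percent and the ratio of observed to expected CpGs of each construct. Activity was divided by that of the WT construct of the same replicate, log2 transformed and tested with limma 3.58.1 (R 4.3.3), in 1 fit across all constructs of a library with at least 1 barcode (window library: 3) in at least 2 replicates, two-sided, with Benjamini-Hochberg adjustment over all of them. limma gave all constructs of the motif library a single SE per comparison, and all share the noise of the WT construct, so that calls within a replicate are not independent. Differences and additivity were tested by exact sign-flip permutation over 6 replicates, two-sided, adjusted over 8 and 4 comparisons. The limma fits and the sign-flip test were tested on simulated data, without the noise that constructs share through the WT construct. Only activity ratios, not read counts, were used, so that read depth behind a value is unknown here and the number of barcodes stands for it. Same-numbered replicates of the 2 lines deviated weakly together from their group means over 32 constructs (r = 0.26, 0.36 and 0.12, a description). Between replicates of different number r ran from -0.27 to 0.03. The labels do not state a pairing by number, so it is possible but not known. The comparison between the lines was fitted without that pairing, and with it as an alternative, and the permutation tests do not use it. A fit with the replicate number as a block, other barcode minimums, weights and references, and leaving out each replicate were tried. All 12 mutants, the WT construct and the windows over a motif are named. The members and comparisons were chosen with earlier results of these data known.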

Additional observations from a re-analysis of the deposited data

Results flagged for a closer look

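The activity of NRF1_1 relative to the WT construct differed between the cell lines. It lay below the WT construct in 3 of 3 wild-type replicates and above it in 3 of 3 TKO replicates, a difference of 2.14 on the log2 scale (adjusted p = 0.0201 by limma) over 2 to 7 barcodes a replicate. It was 1.88 without TKO replicate 1, in which the WT construct was low (adjusted p = 0.158), 1.52 relative to the median construct (0.372) and 1.32 with no reference construct (0.327), by limma. The additivity of the NRF1 motifs also went in opposite directions in the 2 lines, above the sum of the single changes in 3 of 3 wild-type replicates and below it in 3 of 3 TKO replicates. The difference between the lines was -3.68, with an exact permutation p of 0.1 from permuting the cell-line labels, the smallest that 3 against 3 allows. Both results contain the NRF1_1 values and the WT construct of each replicate, so they are not independent. The low WT construct of TKO replicate 1 also raised the sum of the single changes there more than the measured change. In TKO replicates 2 and 3, where the WT construct was not low, the additivity differences were -3.09 and -0.20. Without TKO replicate 1 the mean additivity difference over both lines was 0.17, and without TKO replicate 2 it was 0.07. Each of these means holds 3 positive wild-type and 2 negative TKO values. Why the lines differed was not tested. With 3 replicates a group, no formal test for outlying replicates was made.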

How the results depend on the processing

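GABPA_2, all GABPA, SP1_2, all SP1, all TF motifs, all NRF1 and MYC stayed below the WT construct past the threshold in wild-type cells under every alternative tried, as did the first 5 in TKO cells. The number of mutants called in wild-type cells was 8 to 9 with 1 replicate left out and 10 under the other alternatives, and in TKO cells it was 5 to 9 and 6 to 7. Between the lines, the 1 call became 0 relative to the median construct and with replicates weighted by barcodes, and 0 to 1 with 1 replicate left out. The fit with the replicate number as a block gave 1 call and changed no other. Of the window library, 9 of 14 constructs over motifs were called, and 4 to 9 with 1 replicate left out. Some changes near 0 turned their sign. GABPA_1 in wild-type cells was -0.078 and SP1_1 in TKO cells -0.061 when weighted by barcodes. With 1 replicate left out, GABPA_1 ran from -0.29 to 0.32 in wild-type cells and from -1.06 to 0.98 in TKO cells, NRF1_2 in TKO cells from -0.40 to 0.60, NRF1_3 from -0.57 to 0.060 and SP1_1 from -0.29 to 0.91. For TKO against wild-type cells these ranges were -1.09 to 0.95 for GABPA_1, -0.13 to 0.82 for all NRF1 and -0.017 to 0.57 for all TF motifs, and for the window of positions 245 to 254 -0.23 to 0.21. Relative to the median construct, the TKO minus wild-type differences of all GABPA, all NRF1, all SP1, all TF motifs and MYC were -0.11, -0.23, -0.077, -0.26 and -0.025. With no reference construct, an alternative chosen after seeing the data, they were -0.32, -0.44, -0.28, -0.47 and -0.23, with NRF1_3 at -0.056 and SP1_1 at -0.11. The additivity of NRF1 ran from -0.91 to 0.17 with 1 replicate left out, and that of all TF motifs was -0.42 with the sum limited to the floor. The sum without MYC was also chosen after seeing the data. Replicates with at least 3 barcodes in every construct left 1 replicate for the GABPA additivity and pair and for all TF motifs, which allows no test. The causes were not tested. Barcodes limit GABPA_1 most, and the floor limits all SP1 and all TF motifs, and in TKO cells also GABPA_2 and SP1_2.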

Other observations

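The motif library also held 2 constructs with Sp in their names that belong to no comparison above. Pwp2_all_Spmutseq, with 34 CpGs and 457 bp, had log2 activities of -3.93, -4.17 and -4.21 in wild-type and -3.97, -3.85 and -3.88 in TKO cells. Pwp2_all_Spdelseq, with 34 CpGs and 418 bp, had -2.32, -3.03 and -2.73 in wild-type and -2.76, -4.00 and -3.69 in TKO cells. The construct with both SP1 motifs mutated, with 35 CpGs, lay between -3.95 and -3.68 in wild-type cells. All 3 values of Pwp2_all_Spdelseq in wild-type cells were above all 3 of each of the other constructs.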
